A study of Mus musculus with 8 samples.

Results

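The genes described here are 34 mouse genes of the mature synapse, the contact at which a neuron releases transmitter onto its target. They were taken as a named list and found on the array through the accession of each probe. The list has 54 probes, of which 51 could be used in the fit, and 32 of the 34 genes gave a value in the fit, out of 21941 genes tested. Snap25, a membrane fusion protein, was left out because its spot was marked as an outlier on 2 arrays of replicate 1, and Shank2, a postsynaptic scaffold, because its signal was not well above background in every channel of any age.

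The RNA came from small vessels of the mouse forebrain and was read on two-colour arrays. The vessels were taken at 3 ages, namely postnatal day 5 (P5), postnatal day 10 (P10) and adult. Vessels were separated from the homogenised forebrain by density and filtration, with particles under 70 µm kept, and 100 ng of total RNA was labelled. Each of the 2 replicates was a slide of 4 arrays, which set P5 beside adult RNA, P10 beside adult RNA in both dye orders, and P5 beside P10. No treatment or genetic change was named for any age, and the strain, the sex and the age of the adults are not given in the sources used here. Nothing in the labels tells whether the replicates are separate animals or pools. The p-values then measure only the spread between these samples, and that spread may be technical.

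Synaptic transmission runs from transmitter synthesis and loading into vesicles, through docking and calcium-triggered fusion at the active zone, to retrieval of the vesicle membrane and reception at the postsynaptic density. In the rodent forebrain most synapses form in the weeks after birth, and several protein families exchange an early member for a later one in that time. Many of these genes are known as neuronal, whereas the preparation was made to enrich vessels. In bulk RNA of this kind, fewer cells of a type and less RNA per cell cannot be told apart.

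The labelled tissue was checked against its markers. All 15 listed endothelial markers were measured, and all 15 were lower at P5 than in the adult, with a median log2 ratio of -1.99 that ranged from -2.60 to -1.64 over the alternative processings. Neuronal RNA was measured as well: 20 of 22 general neuronal genes and 16 of 16 genes of immature neurons gave values. The general neuronal genes had a median log2 ratio of 0.49 at P5 against adult, -0.30 at P10 against adult and 0.77 at P5 against P10. When arrays were centred on their median in place of loess, the first of these medians turned to -0.08 and the last fell to 0.14. The genes of immature neurons stood at 2.41, 1.18 and 1.02 in the same comparisons. Other cells moved with age as well. The 8 measured erythroid markers had medians of 4.86, 2.19 and 2.53 in these comparisons, with 8, 6 and 7 called higher. The 9 markers of pericytes and smooth muscle had medians of -1.60, -0.37 and -1.24, with 9, 3 and 9 called lower. The 11 markers of oligodendrocytes had medians of -1.54, -1.30 and -0.39, with 8, 8 and 3 called lower and 1, 0 and 2 higher. In the same comparisons 30.1%, 8.42% and 23% of all genes were called higher, and 23%, 9.1% and 18.2% lower. At P5 against P10, 45.5% of the oligodendrocyte markers were called in either direction, near the 41.2% of all genes. Medians of the 12 astrocyte markers were -0.45, -0.17 and -0.30, and those of the 10 microglial markers 0.55, 0.05 and 0.48. The part of any of these cells in the values of the synapse genes was not tested. Of the 43020 spots that are not controls, 65.2% to 73.3% per channel stood well above background. The number of replicates, 2 for each age, limits the precision.

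Values below are log2 ratios from a limma fit of age and replicate over all 21941 genes, positive where the younger age was higher. A gene is called where its p-value, adjusted by Benjamini-Hochberg within the comparison, is below 0.05. The 3 comparisons share their samples: P10 values enter both P10 against adult and P5 against P10, and adult values enter 2 comparisons. They are therefore set side by side for each gene and are not independent of each other.

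Of the synapse genes, those called at P10 against adult were all lower at P10, those called at P5 against P10 were all higher at P5, and those called at P5 against adult went both ways. At P10 against adult, 12 of 32 genes (37.5%) were called lower and 0 higher, where 17.5% of all genes were called, 9.1% lower and 8.42% higher. At an unadjusted p below 0.05, 20 were lower and 0 higher in limma. At P5 against P10, 19 of 32 (59.4%) were called higher and 0 lower, where 41.2% of all genes were called, 23% higher and 18.2% lower. Unadjusted, 20 were higher and 1 lower. The share of all genes at the unadjusted threshold is not given, so unadjusted counts here and below stand without that comparison. At P5 against adult, 6 were called higher and 9 lower (46.9% in either direction), where 53.1% of all genes were called, 30.1% higher and 23% lower, so that share lay near the share of all genes.

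The median over the 32 genes was -0.45 at P10 against adult, with -0.73 in replicate 1 and -0.29 in replicate 2, beside 0.01 for all genes. It was 0.60 at P5 against P10, with 0.51 and 0.61, beside 0.06 for all genes. It was -0.03 at P5 against adult, with -0.13 and 0.08, beside 0.09 for all genes. Ordered by fitted level, P10 was the lowest age in 23 of the 32 genes (71.9%), P5 in 5 and the adult in 4, whereas P10 was lowest in 24.7% of all genes. This count by lowest age was not planned beforehand and uses the same values as the comparisons above. Both replicates put P10 lowest in 18 genes, P5 in 3 and the adult in 2, and they differed in 9. The highest age was P5 in 16 genes and the adult in 16.

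The P5 side of this picture moved with the normalization. Loess removes any trend of the ratio with spot brightness, and the synapse probes were bright, 26 of 32 lying above the median brightness of all genes. When arrays were centred on their median in place of loess, the median of all genes moved from 0.06 to -0.12 at P5 against P10 and from 0.09 to -0.07 at P5 against adult. Relative to all genes, the synapse genes then stood at 0.22 in place of 0.54 at P5 against P10, and at -0.43 in place of -0.13 at P5 against adult. Under that centring 4 genes were called higher and 1 lower at P5 against P10, 1 higher and 15 lower at P5 against adult, and 14 of 32 were lowest at P10, beside 18.8% of all genes. At P10 against adult the median was -0.43 under that centring, with 6 genes called lower in place of 12. With Agilent's own processed signals, also centred on the median, 22 genes were lowest at P10 and 14 were called higher at P5 against P10. Whether those signals already carry a correction for brightness was not examined. They therefore cannot show the result without such a correction. The main processing left out 11 spots of faulty background, a step adopted after results had been seen. Without that step 3 synapse genes were called lower at P10 against adult. At P5 against P10 it then called 0 synapse genes and 0 of all genes.

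**Figure D1:**
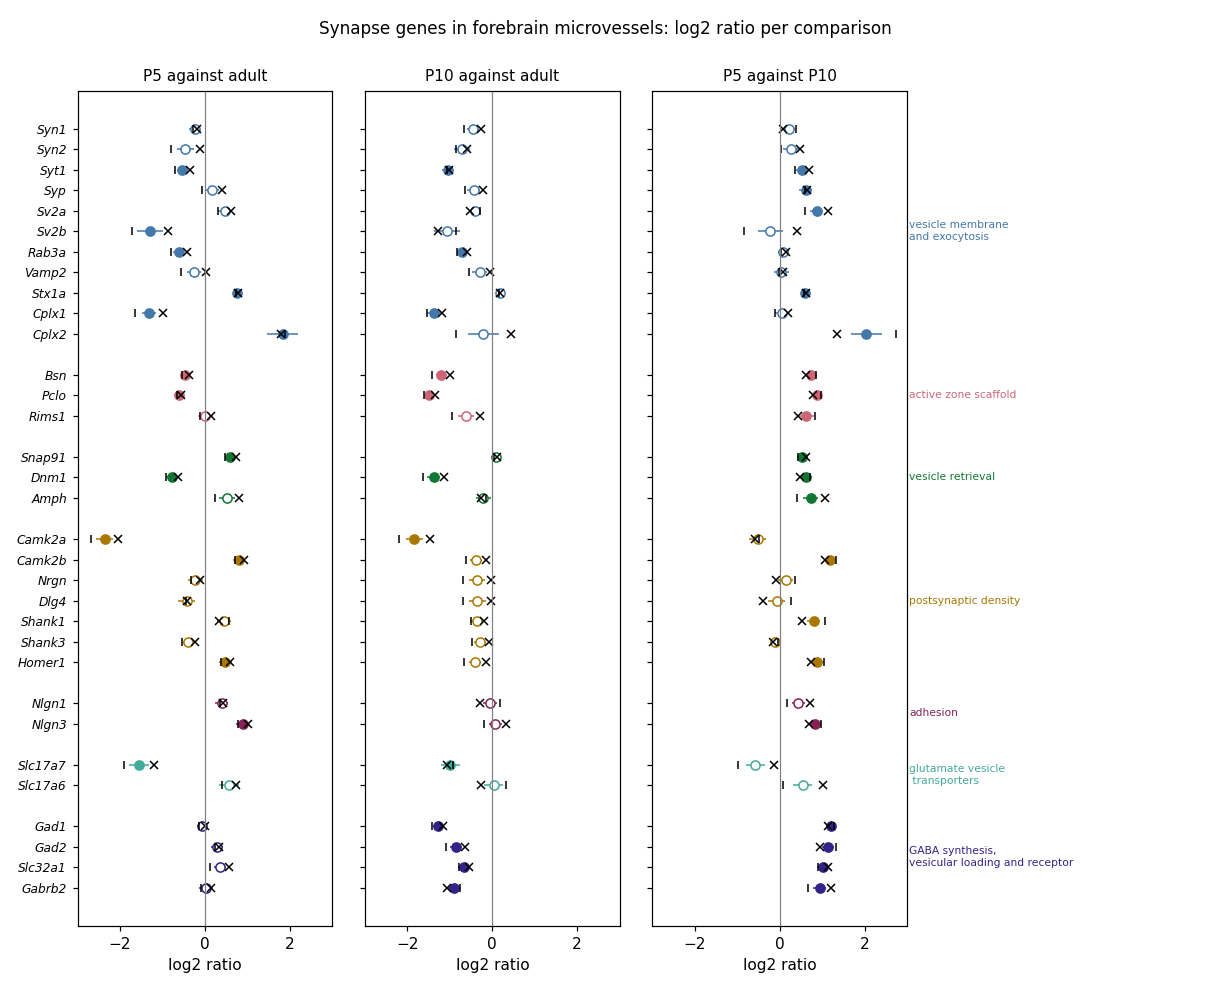
Log2 ratio (horizontal axis) of each of the 32 measured synapse genes, grouped and coloured by role, in the 3 comparisons. Circles are fitted values with bars of 1 standard error, filled where called, and vertical ticks and crosses are replicates 1 and 2; in the P10 against adult panel the filled circles all lie below 0, and in the P5 against P10 panel all lie above 0.

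The 4 genes of the GABA synapse all passed the test in the same comparisons. Gad1 and Gad2 encode the enzymes that make GABA, the main inhibitory transmitter, Slc32a1 encodes the transporter that loads it into vesicles, and Gabrb2 encodes a subunit of its receptor. All 4 were called lower at P10 than in the adult and higher at P5 than at P10, with medians of -0.89 and 1.08. The shares of all genes called in these directions were 9.1% and 23%. At P5 against adult the median was 0.15 with 0 of 4 called in limma, and 0 of 4 had an unadjusted p below 0.05.

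For Gad1 the P10/adult arrays read -1.34 in replicate 1 and -1.0 in replicate 2, and -1.63 and -1.30 with the dyes exchanged. Its P5/P10 arrays read 1.30 and 1.31, and its P5/adult arrays 0.11 and 0.13. P10 was thus below both other ages on every array that held it. The fit gave -1.29 ± 0.11 (SE, n = 2 replicates; limma adjusted p = 0.00468) at P10 against adult, a 2.45-fold difference, and 1.21 ± 0.11 (adjusted p = 0.00515) at P5 against P10. At P5 against adult it gave -0.08 ± 0.11 (adjusted p = 0.577), a difference smaller than its error.

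Gad2 read -1.05 and -0.45 on the P10/adult arrays, -1.13 and -0.88 with the dyes exchanged, 1.36 and 1.13 on the P5/P10 arrays, and 0.27 and 0.60 on the P5/adult arrays. Its fitted ratios were -0.86 ± 0.14 (limma adjusted p = 0.0211) at P10 against adult and 1.14 ± 0.14 (adjusted p = 0.00803) at P5 against P10. Every P10/adult reading of Gad2 was negative, and the P5/P10 readings of both replicates were positive. Slc32a1 had -0.67 ± 0.14 and 1.02 ± 0.14 in the same comparisons, with replicate values of -0.79 and -0.55, and 0.90 and 1.13. Its second, dimmer probe, fitted with all probes in place of 1 per gene, gave -0.13 and -0.21 and was called in neither, so these calls rest on the brighter probe. The dimmer probe was called lower at P5 against adult at -0.34, where the brighter gave 0.35 and was not called. Gabrb2 had -0.91 ± 0.16 and 0.94 ± 0.16, and its P10/adult arrays ran from -1.15 to -0.82. Under median centring, Gad1 and Gad2 were still called higher at P5 than at P10, at 0.76 and 0.72, whereas Slc32a1 at 0.34 and Gabrb2 at 0.46 were not. At P10 against adult under that centring Gad1 was still called, at -1.29, and Gad2 at -0.85, Gabrb2 at -0.91 and Slc32a1 at -0.63 were not. Over the 10 alternative processings the P10 against adult call held in 9 for Gad1, 8 for Gad2, 5 for Gabrb2 and 3 for Slc32a1.

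With the main processing, the brightest probes of the 4 GABA genes were called in the same directions at P10 against adult and at P5 against P10. The stretch before each start site is shown for comparison. It is 250 bases of the RefSeq promoter table on build GRCm38.p6, 5′ to 3′ on the gene's strand, the plus strand for all 4. Capitals mark matches, on either strand, to 4 short motifs. These are the core promoter element TATAAA, which positions the start of transcription, and the motif GGGCGG, which is bound by factors of the Sp family. The others are the partial cyclic nucleotide response element TGACG, and the right part of the neuronal silencer element RE1, which reads GGACAGC.
Gad1, chr2:70561879-70562128: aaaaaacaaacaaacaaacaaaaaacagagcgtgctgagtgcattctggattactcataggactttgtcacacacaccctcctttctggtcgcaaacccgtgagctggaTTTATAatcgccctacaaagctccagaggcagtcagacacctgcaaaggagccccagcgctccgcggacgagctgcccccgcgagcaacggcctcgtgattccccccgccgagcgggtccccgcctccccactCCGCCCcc
Gad2, chr2:22622077-22622326: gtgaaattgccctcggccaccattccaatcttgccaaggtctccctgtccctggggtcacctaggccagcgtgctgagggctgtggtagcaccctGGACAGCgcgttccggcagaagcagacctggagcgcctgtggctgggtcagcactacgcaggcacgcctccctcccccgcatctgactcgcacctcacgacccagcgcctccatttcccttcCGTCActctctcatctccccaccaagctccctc
Slc32a1, chr2:158610508-158610757: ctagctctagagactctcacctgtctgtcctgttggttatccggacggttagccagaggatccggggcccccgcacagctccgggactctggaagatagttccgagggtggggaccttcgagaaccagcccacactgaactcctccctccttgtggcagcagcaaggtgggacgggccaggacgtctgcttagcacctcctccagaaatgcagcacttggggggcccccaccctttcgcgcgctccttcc
Gabrb2, chr11:42420190-42420439: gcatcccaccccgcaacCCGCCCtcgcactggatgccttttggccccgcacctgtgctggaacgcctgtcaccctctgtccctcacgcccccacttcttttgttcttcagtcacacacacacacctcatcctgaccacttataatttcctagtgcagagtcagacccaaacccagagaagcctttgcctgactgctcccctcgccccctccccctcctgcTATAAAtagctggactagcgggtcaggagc

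These 4 windows share no motif among those searched. TATAAA was present in Gad1 on the opposite strand, 135 bases before the start, and in Gabrb2 on the gene's strand, 24 bases before it. GGGCGG was present in Gad1 and Gabrb2, TGACG and GGACAGC in Gad2 only, and none in Slc32a1. Gabrb2 has 3 starts in the table and the first is shown. Of the 34 synapse genes 28 matched the table, and Vamp2, Snap25, Camk2a, Shank1, Shank2 and Nlgn3 did not. GGGCGG lay in 17 of the 28 (60.7%), beside 32.9% of all 27025 promoters, and the median GC content was 61.2% against 52%. TATAAA lay in 10.7% of the 28 against 13% of all. TGACG lay in 17.9% of each, which counts the full element TGACGTCA, present in 1 synapse gene and 1.62% of all. GGACAGC and TCAGCACC, the left part of RE1, each lay in 1 of the 28, against 5.29% and 1.27% of all. These are matches of letters in a window and describe no binding.

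The glutamate transporters of the vesicle, which load the main excitatory transmitter, differed from each other. Slc17a7 (VGLUT1) is known as the later form in the cortex and Slc17a6 (VGLUT2) as the earlier. Slc17a7 read -1.88 and -1.24 on the P5/adult arrays, -1.04 and -1.22 on the P10/adult arrays, -0.89 and -0.98 with the dyes exchanged, and -1.16 and -0.34 on the P5/P10 arrays. All 8 readings were negative, lowest at the youngest age. The fit gave -1.55 ± 0.23 (limma adjusted p = 0.00562) at P5 against adult, a 2.93-fold difference, and -0.99 ± 0.23 (adjusted p = 0.046) at P10 against adult, a call that held in 4 of the 10 alternative processings. At P5 against P10 it was -0.57 ± 0.23 and not called. Slc17a6 was called in no comparison, with 0.57 ± 0.23 at P5 against adult (adjusted p = 0.0968), 0.03 ± 0.23 at P10 against adult and 0.54 ± 0.23 at P5 against P10.

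Among the 11 measured genes of the vesicle membrane and its fusion, 2 were called higher and 4 lower at P5 against adult, 3 lower at P10 against adult, and 5 higher at P5 against P10. The shares called in either direction were 54.5%, 27.3% and 45.5%, beside 53.1%, 17.5% and 41.2% of all genes, so the first and last lay near the share of all genes. The complexins, small proteins that bind the fusion complex and gate release, went opposite ways. Cplx1 read -1.42 and -1.14 on the P5/adult arrays, -1.58 and -1.28 on the P10/adult arrays, -1.69 and -1.07 with the dyes exchanged, and -0.21 and 0.12 on the P5/P10 arrays. Adult RNA was thus above both young ages on all 6 arrays that held it, and the young ages overlapped. The fit gave -1.32 ± 0.17 (limma adjusted p = 0.00435) and -1.37 ± 0.17 (adjusted p = 0.0112) against the adult, and 0.05 ± 0.17 at P5 against P10.

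Cplx2 read 1.73 and 1.72 on the P5/adult arrays and 2.43 and 1.05 on the P5/P10 arrays, but -1.11 and 0.20 on the P10/adult arrays and -0.66 and 0.55 with the dyes exchanged. P5 was highest in both replicates, and the replicates disagreed on whether P10 lay below or above the adult. Its fitted ratios were 1.83 ± 0.36 (limma adjusted p = 0.0126) at P5 against adult, a 3.56-fold difference, and 2.04 ± 0.36 (adjusted p = 0.0154) at P5 against P10, where replicate 1 gave 2.73 and replicate 2 gave 1.35. The 3 brightest Cplx2 probes gave 1.83, 1.83 and 1.90 at P5 against adult, and the fourth gave -0.15, not called. Which transcript each probe reads was not determined.

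Syt1, the calcium sensor of fast release, was lower at P10 than in the adult at -1.05 ± 0.13 (limma adjusted p = 0.00996), with -1.07 and -1.03 in the replicates. It was lower at P5 than in the adult at -0.53 ± 0.13 (adjusted p = 0.0221). Its value at P5 against P10 was 0.52 ± 0.13 and turned to -0.24, not called, under median centring. Rab3a, a GTPase that guides vesicles to the membrane, was lower than the adult at both young ages, at -0.62 ± 0.13 and -0.71 ± 0.13, and was 0.09 ± 0.13 at P5 against P10. Neither Syt1 nor Rab3a was called at P10 against adult under median centring, at -0.94 and -0.66. Sv2b, a vesicle glycoprotein, was called lower at P5 against adult only, at -1.30 ± 0.30 with -1.71 and -0.88 in the replicates, and was -1.07 ± 0.30 (adjusted p = 0.076) at P10 against adult.

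Stx1a, the membrane partner in vesicle fusion, differed from these in being higher at P5. It read 0.71 and 0.65 on the P5/adult arrays and 0.50 and 0.54 on the P5/P10 arrays, with P10/adult readings from 0.09 to 0.29. The fit gave 0.76 ± 0.09 (limma adjusted p = 0.00365) at P5 against adult and 0.59 ± 0.09 (adjusted p = 0.0125) at P5 against P10, and both calls were lost under median centring, at 0.23 and 0.05. Sv2a, the vesicle glycoprotein bound by levetiracetam, was called higher at P5 than at P10 at 0.87 ± 0.15, as was the abundant vesicle protein Syp at 0.61 ± 0.15. Under median centring the Sv2a value fell to 0.37 and was not called, and the Syp value turned to -0.12. Syn1, Syn2 and Vamp2, which tether vesicles or drive their fusion, were called in no comparison with the main processing. Their values ran from -0.46 to -0.24 at P5 against adult, from -0.72 to -0.30 at P10 against adult and from 0.04 to 0.26 at P5 against P10. Under median centring each was called lower at P5 against adult, Syn1 at -0.86, Syn2 at -1.09 and Vamp2 at -0.88. A second probe of Syn2 was called lower at P5 against adult at -0.93 and at P10 against adult at -0.71. Among the single arrays that remained for Snap25, P5 was above the adult by 1.85 and 1.26, while P10/adult readings were -0.40 and 0.29, with -0.01 on the dye-exchanged array of replicate 2 and 1.12 on the P5/P10 array of replicate 2.

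**Figure D2:**
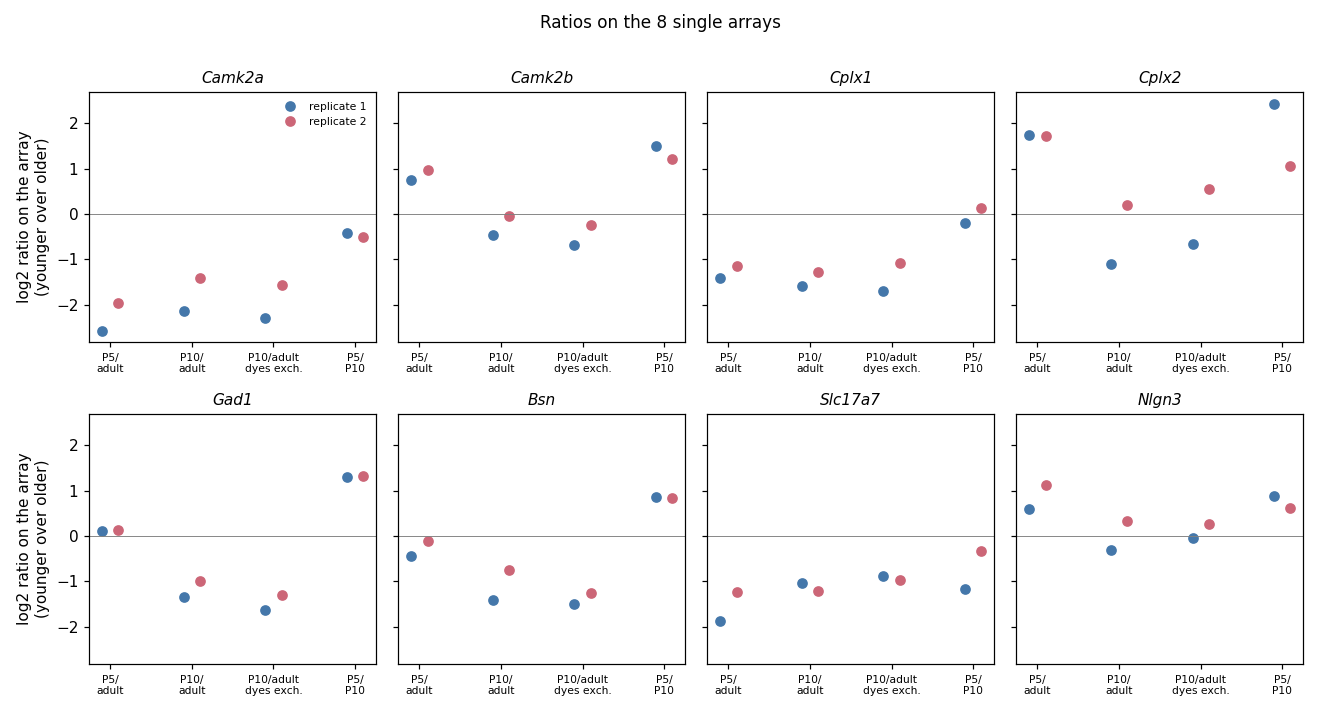
Log2 ratio on each of the 8 arrays (vertical axis, younger over older age) for 8 synapse genes, with the 4 kinds of array along the horizontal axis and replicates 1 and 2 in blue and red. Camk2a and Slc17a7 lie below 0 on all 8 arrays, Gad1 lies below 0 only where P10 was set against the adult, and Cplx2 differs between replicates on the P10/adult arrays.

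Of the 3 scaffold genes of the active zone, where vesicles fuse, 2 were called lower at P10 than in the adult and 3 higher at P5 than at P10. Beside these, 9.1% of all genes were called lower and 23% higher in the same comparisons. Bsn and Pclo encode bassoon and piccolo, giant proteins that organise the site. Bsn read -1.40 and -0.76 on the P10/adult arrays, -1.50 and -1.25 with the dyes exchanged, 0.85 and 0.83 on the P5/P10 arrays, and -0.44 and -0.10 on the P5/adult arrays. P10 was below both other ages on all 6 arrays that held it. Its fitted ratios were -1.20 ± 0.13 (limma adjusted p = 0.00815) at P10 against adult, 0.74 ± 0.13 at P5 against P10 and -0.46 ± 0.13 (adjusted p = 0.0383) at P5 against adult. Under median centring the P5 against P10 value was 0.21 and not called.

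Pclo gave -1.49 ± 0.11 (limma adjusted p = 0.00346) at P10 against adult, a 2.80-fold difference, 0.88 ± 0.11 at P5 against P10 and -0.61 ± 0.11 at P5 against adult. Median centring gave 0.35, not called, at P5 against P10. Its other 3 probes did not follow the brightest one. They gave -0.34, -0.27 and -0.01 at P10 against adult, none called, and at P5 against adult they gave 0.35, 0.37 and 0.18, of which 0.37 was called higher. At P5 against P10 all 4 probes were positive and 3 were called. The mean over all Pclo probes at P5 against adult was 0.07. Rims1, which couples vesicles to calcium channels, was called higher at P5 than at P10 at 0.63 ± 0.18, a call that held in 2 of the 10 alternatives, and its second probe gave -0.19 there. That second probe was called lower at P5 against adult at -0.53, where the brighter gave 0.01.

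Among the genes of vesicle retrieval, Dnm1 encodes the GTPase that pinches vesicles off the membrane. It read -1.72 and -1.10 on the P10/adult arrays, -1.55 and -1.13 with the dyes exchanged, -0.99 and -0.65 on the P5/adult arrays, and 0.63 and 0.54 on the P5/P10 arrays. Both young ages lay below the adult on all 6 arrays. Its fitted ratios were -1.38 ± 0.15 (limma adjusted p = 0.00729) at P10 against adult and -0.78 ± 0.15 (adjusted p = 0.0115) at P5 against adult, and the dimmer probe gave -0.77 and -0.78. The value at P5 against P10, 0.61 ± 0.15, was -0.01 on the dimmer probe and -0.15 under median centring.

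Snap91, the clathrin adaptor AP180, was instead called higher at P5, at 0.60 ± 0.11 against the adult and 0.53 ± 0.11 against P10, and was 0.08 ± 0.11 at P10 against adult. Amph, the curvature protein amphiphysin, was called higher at P5 than at P10 at 0.73 ± 0.18. Neither Snap91 nor Amph kept these calls under median centring, where they gave 0.09 and 0.11 at P5 against P10.

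In the postsynaptic density, the protein mesh under the receiving membrane, the subunits of calmodulin kinase II moved apart. Camk2b is known as the subunit that prevails early in forebrain development and Camk2a as the one that accumulates after birth. Camk2a read -2.57 and -1.96 on the P5/adult arrays, -2.13 and -1.42 on the P10/adult arrays, -2.30 and -1.56 with the dyes exchanged, and -0.41 and -0.51 on the P5/P10 arrays. All 8 readings were negative. Its fitted ratio at P5 against adult, -2.36 ± 0.20 (limma adjusted p = 0.00151), was the largest of the 32 genes in that comparison, a 5.15-fold difference, and ran from -2.83 to -1.76 over the 10 alternatives with every call held. At P10 against adult it was -1.84 ± 0.20 (adjusted p = 0.00775), and at P5 against P10 -0.52 ± 0.20 (adjusted p = 0.0942). The second Camk2a probe gave -1.45 and -1.34 against the adult, both called.

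Camk2b read 0.75 and 0.97 on the P5/adult arrays, 1.5 and 1.21 on the P5/P10 arrays, -0.47 and -0.04 on the P10/adult arrays, and -0.68 and -0.24 with the dyes exchanged. P5 was highest on every array that held it. The fit gave 0.81 ± 0.14 (limma adjusted p = 0.00848) at P5 against adult and 1.19 ± 0.14 (adjusted p = 0.00698) at P5 against P10, and a second probe gave 0.61 and 1.21, both called. At P10 against adult Camk2b was -0.38 ± 0.14 and not called. Under median centring the P5 values were 0.18 and 0.46, of the same sign but not called.

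Other genes of the density concern its scaffold. Homer1, which links glutamate receptors to the scaffold, was called higher at P5 than at P10 at 0.89 ± 0.15, and all 5 of its probes were positive there, between 0.29 and 0.98. Median centring gave 0.52 for its brightest probe, not called. All 5 Homer1 probes were negative at P10 against adult, and 3 were called, at -0.89, -0.54 and -0.70, whereas the brightest, at -0.41, was not. At P5 against adult its probes disagreed. The brightest gave 0.48 ± 0.15 (limma adjusted p = 0.0455), another was called lower at -0.44, and the mean over probes was -0.06. Shank1, a master scaffold, was called higher at P5 than at P10 at 0.80 ± 0.16, with all 3 probes called, and this call held under median centring at 0.64. At P5 against adult its brightest probe gave 0.45, not called, another was called higher at 0.60, and the dimmest gave 0. Dlg4 (PSD-95), Nrgn (the calmodulin buffer neurogranin) and Shank3 were called in no comparison with the main processing. Their values ran from -0.43 to -0.23 at P5 against adult and from -0.36 to -0.29 at P10 against adult, and from -0.10 to 0.14 at P5 against P10. Under median centring each was called lower at P5 against adult, Dlg4 at -0.88, Nrgn at -0.81 and Shank3 at -0.89. A second, dimmer probe of Shank3 was called lower at P5 against adult at -0.45.

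Of the adhesion genes that join the membranes across the cleft, Nlgn3 was called higher at P5. It read 0.60 and 1.12 on the P5/adult arrays and 0.88 and 0.62 on the P5/P10 arrays, while its P10/adult readings lay on both sides of 0, from -0.31 to 0.32. The fit gave 0.89 ± 0.15 (limma adjusted p = 0.00843) and 0.83 ± 0.15 (adjusted p = 0.0165) for P5 against adult and against P10, and median centring gave 0.48 and 0.41, neither called. Nlgn1 had 0.39 ± 0.16 and 0.44 ± 0.16 in the same comparisons and was not called.

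**Figure D3:**
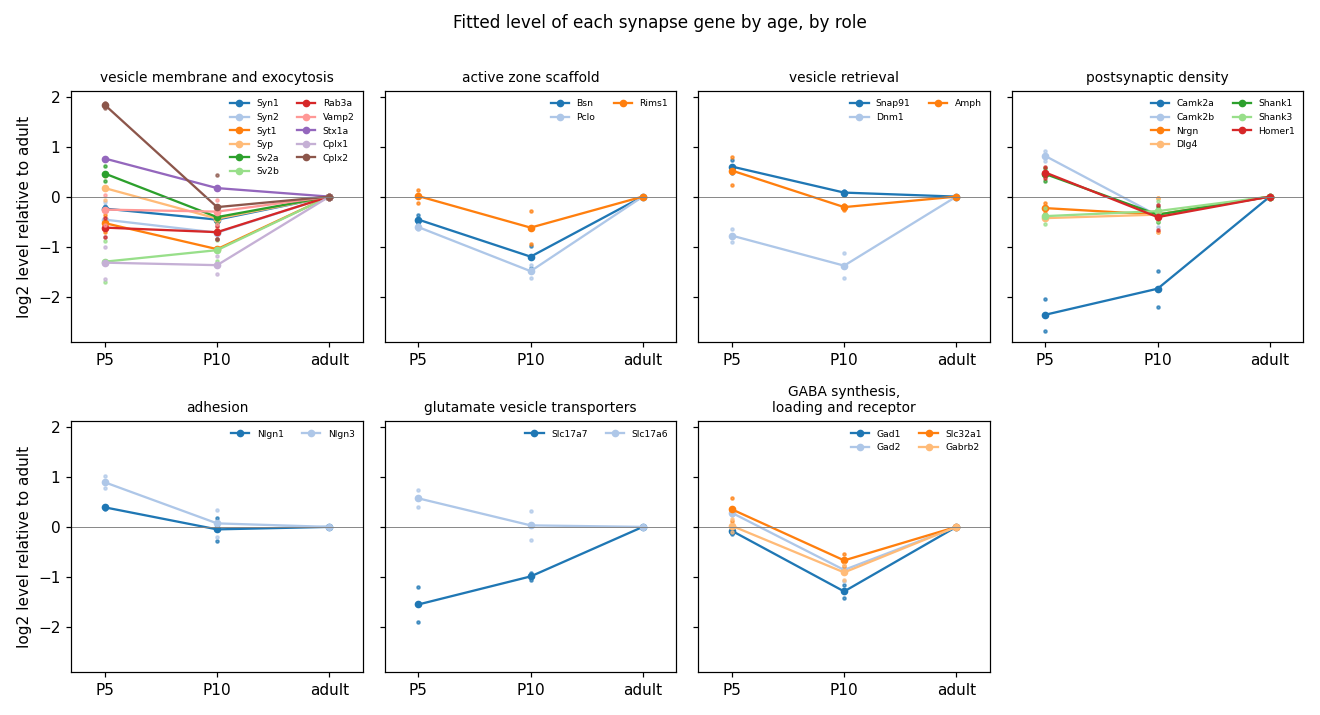
Fitted log2 level of each synapse gene relative to the adult (vertical axis) at P5, P10 and in the adult, 1 panel per role, with large points and lines for the fit and small points for the 2 replicates. Each of the 4 GABA genes dips at P10, Camk2a and Slc17a7 have their lowest fitted level at P5, and Camk2b, Cplx2 and Nlgn3 are highest at P5.

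**Figure D4:**
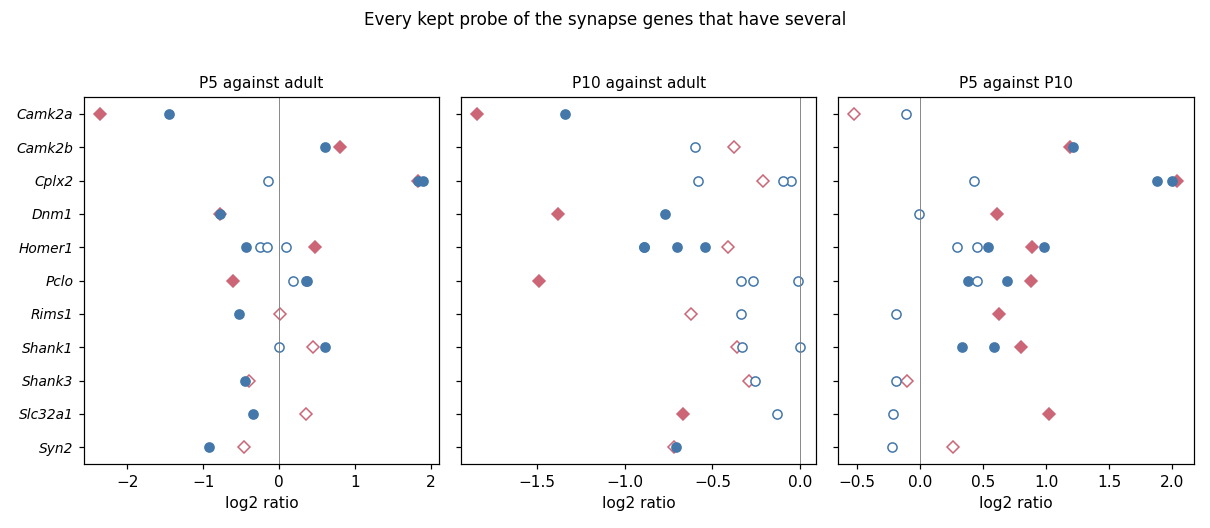
Log2 ratio (horizontal axis) of every kept probe of the 11 synapse genes with several, in the 3 comparisons, with the brightest probe of a gene as a red diamond, the others as blue circles, and called values filled. The Cplx2 probes split 3 to 1 at P5 against adult, and the brightest Pclo probe lies apart from its other 3 at P10 against adult.

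A further 114 synaptic genes, listed by role and not among the 34, gave values for 108. At P10 against adult 2 were called higher and 34 lower (33.3% in either direction, beside 17.5% of all genes), with a median of -0.31. At P5 against P10 52 were higher and 4 lower (51.9%, beside 41.2%), with a median of 0.48 that fell to 0.18 under median centring. At P5 against adult 40 were higher and 24 lower (59.3%, beside 53.1%), with a median of 0.26 that turned to -0.03 under median centring. The median at P10 against adult thus had the same sign as that of the 32 genes, and it lay between -0.37 and -0.23 in the main processing and the 10 alternatives.

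The same genes are given here by role at P5 against adult, where 53.1% of all genes were called. Nlgn2 is listed under both adhesion and the inhibitory postsynapse and is counted in each. Of 27 other adhesion genes 18 were called higher (66.7%, beside 30.1% of all genes) and 0 lower, with a median of 0.66. Unadjusted, 21 were higher and 0 lower in limma, and under median centring 8 were called higher, with a median of 0.35. Ptprd and Ptprs, presynaptic receptor phosphatases that bind adhesion partners across the cleft, were higher by 1.68 ± 0.24 and 1.65 ± 0.11, and Lrfn1 by 1.34 ± 0.14. Of 27 other postsynaptic scaffold and kinase genes 5 were higher and 14 lower (70.4% in either direction), with a median of -0.49. The lowest were Kalrn (a regulator of spine growth) at -2.93 ± 0.19, Itpka at -1.51 ± 0.26 and Ppp1r9b (the spine protein spinophilin) at -1.25 ± 0.11, and the highest was Camkv at 1.29 ± 0.12. Kalrn and Ppp1r9b were below the adult at P10 too, at -1.99 ± 0.19 and -0.75 ± 0.11.

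Of 37 other vesicle and release genes 13 were higher and 6 lower at P5 against adult, with a median of 0.12. That is 51.4% in either direction, near the 53.1% of all genes. Rab3c, a relative of Rab3a, was higher by 1.91 ± 0.45, whereas Nsf, the ATPase that takes the fusion complex apart, was -1.08 ± 0.14. Of 18 other GABA receptor and inhibitory postsynapse genes 5 were higher and 4 lower, 50% in either direction and again near the share of all genes. The receptor subunit Gabra5 was 0.98 ± 0.15 at P5 and 0.36 ± 0.15 at P10 against the adult, the second not called. Nlgn2, the adhesion protein of inhibitory synapses, was 1.23 ± 0.15 at P5 against adult and 0.01 ± 0.15 at P10 against adult.

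Markers of the neurons that carry these synapses moved as follows. The 16 markers of inhibitory neurons had medians of 0.34 at P5 against adult, -0.19 at P10 against adult and 1.0 at P5 against P10. At P5 against P10, 9 of the 16 were called higher (56.2%, beside 23% of all genes). The 4 GABA genes had medians of -0.89 at P10 against adult and 1.08 at P5 against P10. The 13 markers of excitatory neurons, which include Slc17a7, Slc17a6 and Nrgn, had medians of 0.44, -0.17 and 0.54. The part of either kind of neuron in the values of the synapse genes was not tested. The endothelial markers ran the other way at P5 against P10, with a median of -1.26 and 15 of 15 called lower, beside 18.2% of all genes. At P10 against adult their median was -0.63.

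**Figure D5:**
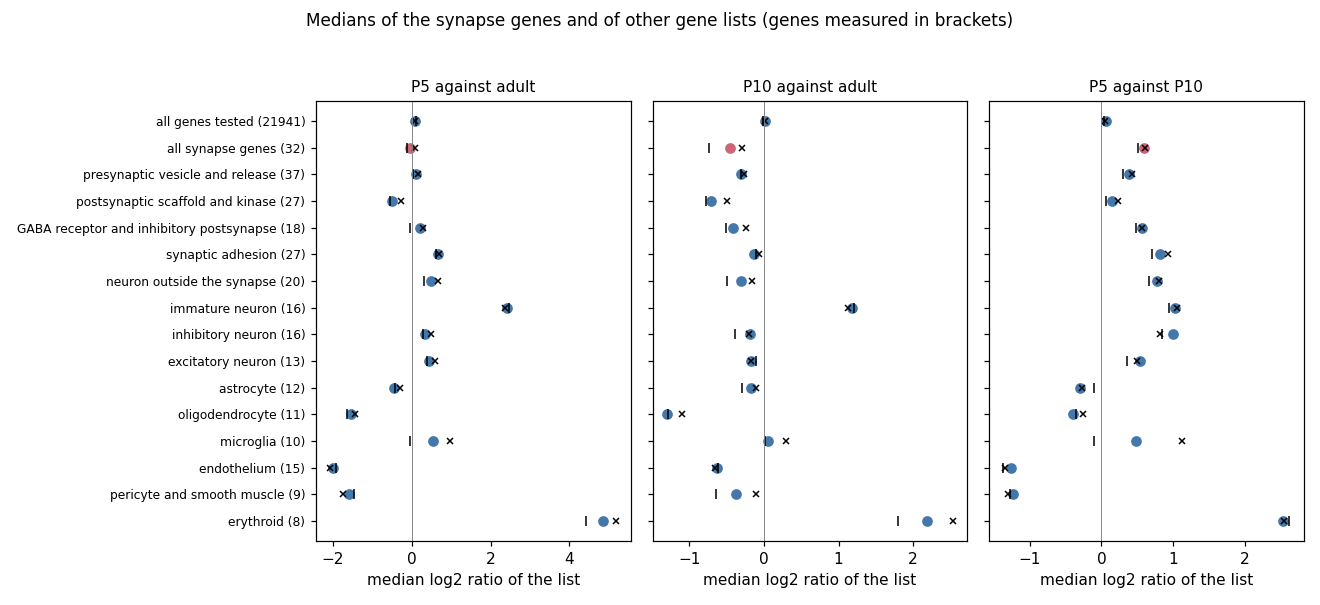
Median log2 ratio (horizontal axis) of the 32 synapse genes (red), of all genes tested, and of the other synaptic and cell marker lists (blue) in the 3 comparisons, with ticks and crosses for the medians of replicates 1 and 2. The synapse genes lie at -0.03, -0.45 and 0.60, the endothelial markers at -1.99, -0.63 and -1.26, and the markers of immature neurons at 2.41, 1.18 and 1.02.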

How the data were processed

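Each array was deposited as a file of Agilent Feature Extraction, with version 10.5.1.1 per the file headers and version 12.6 per the submitters' processing notes. Spot signals and local backgrounds are intensity values on a linear scale as deposited, and the deposited log ratio, per the file headers, is a log10 of Cy5 over Cy3. The ages in each channel and the dye order were taken from the labels.

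Median signals were background-corrected by normexp (offset 50) and normalized by loess (span 0.3) with limma 3.58.1 in R 4.3.3. Control and outlier spots had weight 0. In all, 11 spots whose signal lay more than 100 below a recorded background were left out, a step adopted after results had been seen. Probe accessions were matched to RefSeq symbols (GRCm38.p6), and 27427 of 39429 probes matched. The probe design is on mm9, so probe coordinates are not given. A probe was kept if all channels of some age stood well above background (27190 probes), and the brightest probe stands for a gene. Within each slide the 4 ratios were reduced by least squares, with a dye term, to 1 value per age and replicate. Age and replicate were then fitted with eBayes (2 residual and 2.91 prior degrees of freedom). Ages are paired on the arrays of a slide, so the replicate block belongs to the main fit. Over all genes the replicates correlated at 0.901 at P5 against adult, 0.813 at P10 against adult and 0.8 at P5 against P10, and slide equals replicate, so the replicate values are the values within a batch. The fit was tested on simulated ratios whose spread was taken from these arrays. That test did not cover background correction, loess or the faulty spots left out.

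The 34 genes, the other synaptic lists and the marker lists were chosen with earlier results of these data known. All 34 genes are named. Of the other synaptic lists, only the 3 called genes highest and the 3 lowest at P5 against adult in each could be named. Some of these are not reported here. Promoter windows are the 250 bases before the first listed start.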

Additional observations from a re-analysis of the deposited data

How the results depend on the processing

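Each of the 96 values of a synapse gene was recomputed under 10 alternatives with a test, 960 values in all, of which 790 kept both sign and side of the threshold. Another 107 lost the call, 22 gained it, 36 that were called in neither changed sign, and 5 that were called in the report changed sign. These 5 were Dnm1 (-0.15), Syp (-0.12) and Syt1 (-0.24) at P5 against P10 under median centring, and Homer1 (-0.06) and Pclo (0.07) at P5 against adult with the mean of all probes of a gene. Of the called values, 5 of 15 at P5 against adult (Camk2a, Cplx1, Cplx2, Dnm1 and Slc17a7), 2 of 12 at P10 against adult (Camk2a and Cplx1) and 0 of 19 at P5 against P10 held in all 10. At P5 against P10, the calls of Cplx2, Gad1 and Gad2 held in 9 of the 10. Normexp fitted on all spots as recorded called 0 of 21941 genes at P5 against P10, hence 0 synapse genes, although 17 had an unadjusted p below 0.05 in limma and the median over the 32 was 0.49. The same setting called 3 synapse genes lower at P10 against adult, and of all genes 101 higher and 152 lower there and 2769 and 2610 at P5 against adult, beside 6598 and 5049 with the main processing.

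Median centring gave 14 genes lowest at P10, 1 higher and 15 lower at P5 against adult with a median of -0.51, 6 lower at P10 against adult, and 4 higher and 1 lower at P5 against P10 with a median of 0.10. It called 666 genes of all higher and 613 lower at P10 against adult (main 1847 and 1996), 3771 and 5690 at P5 against P10 (main 5041 and 3993), and 5019 and 5751 at P5 against adult. Agilent's processed signals gave 1739 and 1131 at P10 against adult. Under the other alternatives, 21 to 25 synapse genes were lowest at P10. The mean of all probes gave a median of 0.52 at P5 against P10. Without the dye-exchanged arrays 12 genes were higher at P5 against adult. With no replicate block, 5 were lower at P5 against adult and 12 higher at P5 against P10, with a median of 0.68, and over the whole array 839 genes were higher and 997 lower at P10 against adult and 2981 and 2339 at P5 against P10. Without the 2 arrays with faulty backgrounds, 852 higher and 1033 lower of all genes were called at P10 against adult, and 3305 and 2306 at P5 against P10. With either replicate alone no test can be made; the median at P5 against P10 was 0.51 to 0.61, and no called value changed sign. The cause of these shifts was not tested. Signal over background limits Shank2, which was not well above background in every channel of any age.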
